A study of Homo sapiens with 6 samples.

Results

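The 7 genes described here are *FTH1* and *FTL* (the heavy and light chains of ferritin), *NCOA4* and *HERC2* (the receptor that carries ferritin to the lysosome and the ubiquitin ligase that binds it), *ACO1* and *IREB2* (iron regulatory proteins IRP1 and IRP2) and *FBXL5* (the iron-sensing subunit of the ligase that marks IRP2 for degradation). They were taken by gene name, with all their annotated transcripts, which made 7 of 62252 genes and 60 of 252045 quantified transcripts. Polyadenylated RNA came from K562, a human erythroleukemia cell line, after an overnight treatment. The Chelator group (n = 3) received 10 µM 21H7, an iron chelator that enters cells, and the DMSO group (n = 3) received an equal volume of the solvent alone. Both groups were the same unmodified line in the same medium, 1 dose and 1 treatment period were sampled, and nothing in the labels says whether the 3 libraries of a group came from separate cultures, so p-values measure the spread between these libraries, which may be technical.

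Ferritin is a hollow shell of heavy and light chains that stores iron, and erythroid cells also keep iron moving towards heme. When iron is scarce, IRP1 and IRP2 bind iron-responsive elements (IREs), short hairpins in mRNA. Bound in the 5′ UTR, as in ferritin mRNA, they block translation, and bound in the 3′ UTR, as in transferrin receptor mRNA, they stabilize the message. Much of this control acts on translation or on protein turnover, which RNA-seq does not measure. NCOA4 delivers ferritin to autophagosomes to release its iron, HERC2 marks NCOA4 for degradation when iron is plentiful, IRP1 becomes the cytosolic aconitase when it holds an iron-sulfur cluster, and FBXL5 is stable only with iron and oxygen.

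The libraries held 78.6 to 101 M estimated counts (M, 1e+06 counts). The mean fragment was 253 to 265 bases long in the DMSO libraries and 201 to 219 in the Chelator libraries, so this length and the treatment cannot be told apart in any value given here. All 9 erythroid marker genes checked for K562 were at 42.9 TPM or more in every library (TPM, a level per transcript length scaled to one sum per library). At a DESeq2 adjusted p under 0.05, 4 of the 9 were higher in Chelator and 3 lower, against 19.5% and 18.3% of all genes tested. Beyond a log2 fold change of 1 there were 0 of the 9, against 10.8% of all genes. Among the higher was *HBE1* (log2 fold change 0.76 ± 0.09, DESeq2 adjusted p = 2.5e-17). Among the lower were *KLF1* (-0.72 ± 0.07, 4.6e-23) and *LMO2* (-0.72 ± 0.07, 6.8e-26). These 3 genes were chosen after their values were seen. Of 12 markers of T cells, B cells, hepatocytes, fibroblasts and epithelium, 7 were below 1 TPM in every library and 2 of these, *MS4A1* and *APOB*, were at 0 throughout. The summed level of the 12 was 83.0 to 84.6 TPM in DMSO and 92.7 to 99.0 TPM in Chelator, carried mainly by *EPCAM* (65.4 ± 3.3 in DMSO, 47.9 ± 2.4 in Chelator, SD, n = 3) and *CD3D* (12.8 ± 3.2 and 39.8 ± 0.93). The part of either marker list in the results was not tested. In such bulk RNA, fewer cells of a kind and less RNA per cell cannot be told apart.

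The sequences that tie the ferritin genes together are their IREs, shown because the iron regulatory proteins bind there. Each window has 30 bases of the 5′ UTR read from GENCODE transcripts on build GRCh38, with the 6-base loop of the hairpin in capitals. The *FTH1* window lies at chr11:61967573-61967602 on the minus strand and the *FTL* window at chr19:48965335-48965364 on the plus strand, in the first exon of each gene.
FTH1 IRE: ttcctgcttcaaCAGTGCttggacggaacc
FTL IRE: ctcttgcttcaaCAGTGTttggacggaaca
The windows were identical at 26 of 30 bases. The search asked for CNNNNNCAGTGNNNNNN on the sense strand, with a base other than G after CAGTG and with all 5 bases between the first C and CAGTG able to pair with the last 5, and 0.455% of all annotated transcripts (1144 of 251612) held such a match. It was found in 10 of 12 *FTH1* transcripts and in the single *FTL* transcript, and in 0 of the transcripts of *NCOA4*, *HERC2*, *ACO1*, *IREB2* and *FBXL5*. It was also found in 0 transcripts of *EPAS1*, *SLC11A2* and *CDC42BPA*, which have known IREs, so a miss says only that these letters are not there. Transcripts with the motif made up 99.7% to 99.8% of *FTH1* TPM in the DMSO libraries and 99.6% to 99.8% in the Chelator libraries, ranges that overlapped. So almost all measured *FTH1* RNA of either group held these letters.

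The 7 genes spanned a wide range of levels. The mean TPM over the 6 libraries was 3136 for *FTH1*, 2925 for *FTL*, 140 for *NCOA4*, 40.1 for *IREB2*, 26.7 for *HERC2*, 17.9 for *ACO1* and 17.0 for *FBXL5*. Over all libraries the ranges of *FTH1* (2717 to 3537 TPM) and *FTL* (2644 to 3228 TPM) overlapped, as did those of *IREB2* and *HERC2* and those of *ACO1* and *FBXL5*. Within a library *FTH1* was above *FTL* and *IREB2* above *HERC2* in all 6, whereas *ACO1* was above *FBXL5* in 4 of 6, so the order of the last pair was not fixed. *NCOA4* (123 to 163 TPM) overlapped no other gene. Both ferritin genes stood at the 99.9th percentile of all annotated genes by mean TPM.

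**Figure D1:**
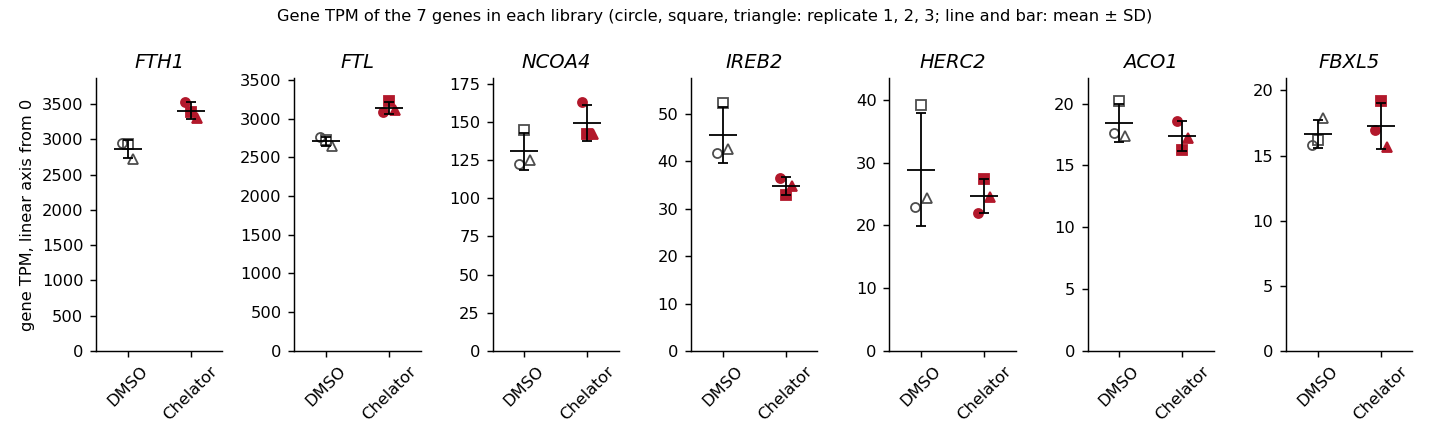
Gene TPM (linear vertical axes from 0, one per gene) of the 7 genes in each DMSO (open, grey) and Chelator (filled, red) library, with symbols for replicates 1 to 3 and a line and bar for the mean ± SD. *IREB2* lies lower in all 3 Chelator libraries (32.9 to 36.6) than in DMSO (41.7 to 52.3), while *FTH1* and *FTL* lie higher in TPM, a direction that turned in the fit that removed GC-content and length trends.

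At the gene level the changes were small. DESeq2's Wald test, with Benjamini-Hochberg adjustment over all genes, called 0 of the 7 members at an adjusted p under 0.05 and a log2 fold change beyond 1 in either direction, against 10.8% of the 24542 genes tested. At an adjusted p under 0.05 with any fold change, 1 member (*FTH1*) was higher in Chelator, against 19.5% of all genes, and 1 (*IREB2*) was lower, against 18.3%. The normalized counts of 4 members did not overlap between the groups, against 49.2% of all genes. The members' median log2 fold change was 0.017, beside 0.016 over all genes tested.

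*FTH1* measured 2943, 2929 and 2717 TPM in the DMSO libraries and 3537, 3388 and 3301 TPM in the Chelator libraries. All 3 Chelator libraries were above all DMSO libraries. The normalized counts (counts corrected for library size and for the average length of the gene's transcripts) were 127306 ± 11241 in DMSO and 148269 ± 8741 in Chelator (SD, n = 3). The log2 fold change was 0.22 ± 0.08 (SE; DESeq2 adjusted p = 0.022), which is 1.16-fold with a 95% interval of 1.04 to 1.30. This direction depended on the processing: without the length correction the log2 fold change was 0.61 (adjusted p = 2.5e-13), in a fit without the trends by GC content and transcript length it was -0.06 (adjusted p = 0.55), over protein-coding transcripts alone it was 0.13 (adjusted p = 0.16), and with libraries centered on the mean log2 change it was 0.10 (adjusted p = 0.43). It passed under 11 of 17 settings, and the adjusted p was 0.10, 0.097 and 0.094 without DMSO replicate 2, DMSO replicate 3 and Chelator replicate 1.

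*FTL* was quantified as a single transcript, *FTL-201*, at 2758, 2725 and 2644 TPM in DMSO and 3086, 3228 and 3110 TPM in Chelator. The groups did not overlap, and the log2 fold change of 0.18 ± 0.08 had an adjusted p of 0.056 (DESeq2). It passed under 6 of 17 settings. The value was 0.11 without DMSO replicate 2 (adjusted p = 0.14) and 0.06 with libraries centered on the mean log2 change (adjusted p = 0.67). Its sign also turned in the fit without those trends (-0.09, DESeq2 adjusted p = 0.23). The effective length that salmon gave this one transcript was 635 to 650 bases in DMSO and 686 to 697 in Chelator, a difference that moved with the shorter fragments of the Chelator libraries.

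The ferritin chains kept close to equal TPM. The ratio of *FTH1* to *FTL* was 1.07, 1.07 and 1.03 in DMSO and 1.15, 1.05 and 1.06 in Chelator. The groups overlapped, and the mean log2 ratio differed by 0.039 (two-sided exact permutation p = 0.60, n = 3 against 3, where 0.10 is the smallest p possible). Taken from estimated counts, which are not per length, the same difference was 0.33. The average effective length of *FTH1* transcripts was 497 ± 22 bases in DMSO and 656 ± 47 in Chelator, without overlap. The other ferritin genes, mitochondrial *FTMT* and testis-type *FTHL17*, were at or below 0.079 TPM in every library. The 25 *FTH1* and 16 *FTL* processed pseudogenes held at most 0.052% and 0.020% of the counts of their parent genes, although 51.9% of the 31-base words of *FTH1-201* and 33.5% of those of *FTL-201* also occur in other genes, among them *FTH1P10* and *FTLP3*.

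The transcripts of *FTH1* changed more than the gene did. Transcript usage, the share of each transcript within its gene, was tested with edgeR over 11938 genes, and 9.22% of them were called (an adjusted Simes p under 0.05 and a share change above 5 percentage points). Among the 6 members with at least 2 testable transcripts, 3 were called: *FTH1* (adjusted p = 1.1e-09), *HERC2* (5.1e-04) and *IREB2* (0.011). Of their 42 tested transcripts, 4 had an adjusted p under 0.05, against 2.63% of all transcripts.

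One of the changed *FTH1* transcripts has an extended exon 2. *FTH1-201*, the reference mRNA, begins exon 2 at the downstream site. In *FTH1-210* exon 2 begins 62 bases earlier, at an upstream site, and the annotation marks this transcript as a target of nonsense-mediated decay (NMD), the pathway that degrades mRNAs with an early stop codon. Its annotated coding sequence has 150 bases against 549 in *FTH1-201*. The extension occupies chr11:61965516-61965577 (GRCh38). The windows show 24 intronic and 6 exonic bases with the acceptor AG in capitals, at chr11:61965510-61965539 and chr11:61965572-61965601, both on the minus strand.
FTH1 downstream acceptor: acacattcagtgttcccctttcAGtcttac
FTH1 upstream acceptor: cgagaccatcttgcctccctgtAGatcgtc
Both windows hold an AG at the intron end and a pyrimidine-rich stretch before it, with C or T at 16 and 15 of the 22 bases before the AG.

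*FTH1-210* measured 8.30, 8.35 and 4.95 TPM in DMSO and 153, 313 and 439 TPM in Chelator. Every Chelator library was far above every DMSO library, although the Chelator libraries differed among themselves. The mean rose 41.9-fold, from 7.20 ± 1.95 to 302 ± 143 TPM. The usage of *FTH1-210* rose (edgeR coefficient 3.37 in natural log, adjusted p = 5.3e-10, and below 0.05 under all 11 settings tried). The estimated counts were 264 to 509 in DMSO and 10327 to 27660 in Chelator, but 0 of its 953 31-base words are its own, so they depend on how reads were divided with other *FTH1* models.

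Together with *FTH1-204*, the other transcript with this start, the extended exon held 0.294%, 0.306% and 0.196% of the TPM that crosses exon 2 in DMSO and 4.38%, 9.45% and 13.9% in Chelator. The groups did not overlap. The 2 extended transcripts jointly hold 113 31-base words that no other *FTH1* transcript has, and 0 of them occurs in another annotated gene on either strand. The pair of NMD transcripts, *FTH1-210* and *FTH1-208*, made up 0.351% ± 0.093 of *FTH1* TPM in DMSO and 9.70% ± 4.77 in Chelator (SD, n = 3, two-sided exact permutation p = 0.10, the smallest possible).

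Another transcript moved the other way. *FTH1-212* lacks a short stretch of the 5′ UTR, annotated in GENCODE 44 as an intron of 89 bases at chr11:61967463-61967551, and keeps both the IRE and the whole coding sequence. Its TPM was 573, 601 and 423 in DMSO and 355, 30.8 and 23.7 in Chelator. Chelator replicate 1 lay near the DMSO libraries and the other two were more than 10 times below it. Its usage fell (edgeR coefficient -1.72 in natural log, adjusted p = 1.0e-04). In the edgeR alternatives this coefficient ranged from -3.35 to -1.37, and limma's diffSplice gave -3.81 in log2. The adjusted p of these usage tests was at most 0.017. Only 29 of its 800 31-base words set it apart from other *FTH1* transcripts, and the deposited version is 5 bases shorter than the release 44 version (825 and 830 bases), so the exact ends of its intron in the deposited annotation are not known.

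The remaining 2 *FTH1* transcripts above 5% of the gene's TPM both hold the IRE. *FTH1-201* measured 531, 483 and 606 TPM in DMSO and 1014, 1325 and 1121 TPM in Chelator, with no overlap, and *FTH1-206*, an incomplete model of 550 bases, measured 1805, 1807 and 1661 TPM against 1975, 1662 and 1637. The usage test gave both an adjusted p of 1.0. *FTH1-206* has only 28 of 520 31-base words of its own, so the split of reads between these 2 is uncertain. *BEST1*, on the opposite strand, overlaps the 3′ part of *FTH1* and shares 792 of the 1173 words of *FTH1-201* in reverse complement, and whether counting used strand was not given in the sources used here, but the counts given to it were at most 0.174% of those of *FTH1*. (*BEST1* was chosen for mention after its values were seen.)

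**Figure D2:**
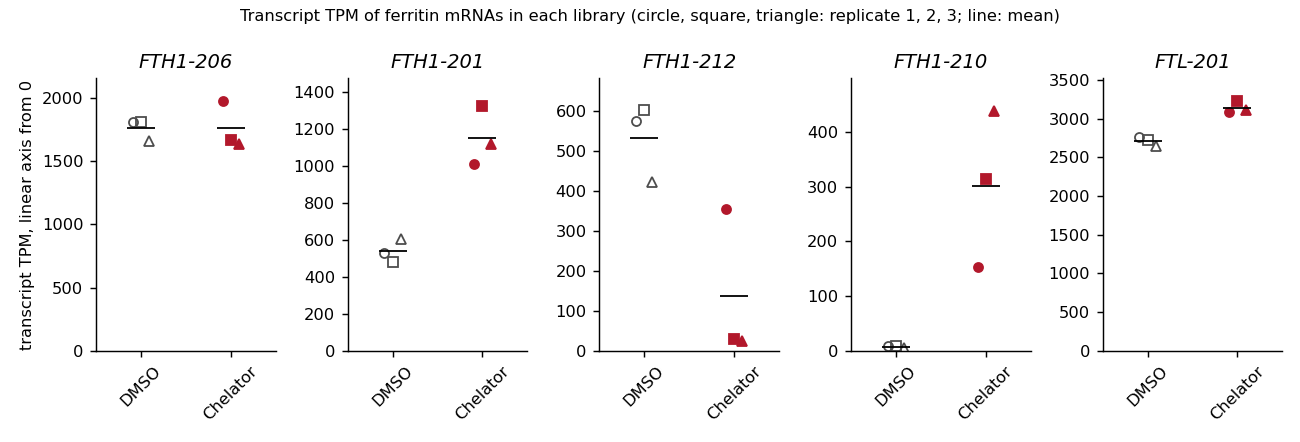
Transcript TPM (linear vertical axes from 0) of the 4 main *FTH1* transcripts and *FTL-201* in each library, with symbols for replicates 1 to 3 and a line for the mean. *FTH1-210* stays at or below 8.35 TPM in DMSO and lies between 153 and 439 TPM in Chelator, and *FTH1-212* is at 30.8 and 23.7 TPM in 2 Chelator libraries but at 355 in the first.

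*NCOA4*, the receptor that sends ferritin to autophagy, measured 123, 145 and 125 TPM in DMSO and 163, 142 and 142 TPM in Chelator. The ranges overlapped. The log2 fold change was 0.17 ± 0.08 with a DESeq2 adjusted p of 0.10. It was positive under all 17 settings (0.04 to 0.22), and 4 of them gave an adjusted p under 0.05, among them the sum over protein-coding transcripts (0.22, adjusted p = 0.0028).

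Of the 7 *NCOA4* transcripts, 2 exceeded 5% of the TPM, and they encode the same 1842-base coding sequence from different first exons. *NCOA4-204*, which starts at the upstream first exon, measured 101, 120 and 102 TPM in DMSO and 119, 105 and 101 TPM in Chelator, ranges that overlapped. *NCOA4-207*, whose own first exon lies at chr10:46023330-46023455 (GRCh38, minus strand), measured 18.4, 22.6 and 21.0 TPM against 39.0, 32.6 and 35.2, with no overlap. The first exon of *NCOA4-207* thus held 15.2%, 15.7% and 16.9% of the TPM with either start in DMSO and 24.2%, 23.2% and 25.0% in Chelator. The usage test of edgeR did not call *NCOA4* (Simes test, adjusted p = 0.23), whereas limma's diffSplice did (2.6e-04).

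*HERC2*, which encodes a giant ubiquitin ligase of 14502 coding bases, measured 23.0, 39.2 and 24.3 TPM in DMSO and 22.0, 27.4 and 24.5 TPM in Chelator. DMSO replicate 2 stood apart from the other 5 libraries. The log2 fold change was -0.24 ± 0.12 (DESeq2 adjusted p = 0.12). It passed under 3 of 17 settings, among them mean centering of the libraries (-0.36, adjusted p = 0.0073), and without DMSO replicate 2 it was -0.06 (adjusted p = 0.67).

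The full-length *HERC2-201* measured 11.4, 25.7 and 12.5 TPM in DMSO and 10.1, 11.8 and 10.0 TPM in Chelator. *HERC2-214*, annotated as an NMD target with 39 exons against 93, measured 3.99, 3.19 and 2.51 TPM against 4.67, 5.68 and 6.20, with no overlap. Its usage rose (edgeR coefficient 0.82 in natural log, adjusted p = 3.3e-04), but without DMSO replicate 2 the adjusted p was 0.10. The remaining 2 transcripts above 5%, *HERC2-205* (a retained intron) and *HERC2-204* (no defined coding sequence), overlapped between groups and had estimated counts of at most 109.

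Near-identical copies limit these values, since 31.3% of the 31-base words of *HERC2-201* occur in other genes. The 11 *HERC2* pseudogenes held 26.7%, 17.3% and 28.7% as many counts as *HERC2* in DMSO and 40.2%, 39.8% and 44.4% in Chelator. Of these, *HERC2P3*, chosen after its values were seen, had 1284 to 1740 counts in DMSO and 1961 to 3004 in Chelator (log2 fold change 0.60 ± 0.12, DESeq2 adjusted p = 9.1e-06). How salmon divided reads among these genes was not tested.

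Of the 2 iron regulatory proteins, the mRNA of IRP2 passed the test and that of IRP1 did not. *IREB2*, which encodes IRP2, measured 41.7, 52.3 and 42.6 TPM in DMSO and 36.6, 32.9 and 34.9 TPM in Chelator. The highest Chelator library was below the lowest DMSO library. Normalized counts fell from 14422 ± 438 to 10859 ± 894 (SD, n = 3), a log2 fold change of -0.41 ± 0.08 (DESeq2 adjusted p = 1.4e-06), or 0.753-fold with a 95% interval of 0.676 to 0.838. The fall held under all 17 settings, from -0.53 to -0.27, with adjusted p-values of at most 0.0020.

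*ACO1*, which encodes IRP1, measured 17.7, 20.2 and 17.4 TPM in DMSO and 18.6, 16.2 and 17.2 TPM in Chelator. The groups overlapped, and the log2 fold change was -0.11 ± 0.09 (DESeq2 adjusted p = 0.35). The interval of the fold change, 0.823 to 1.04, leaves room for a small fall. The adjusted p was 0.044 without Chelator replicate 1 (-0.18) and 0.033 with libraries centered on the mean log2 change (-0.23), and 0.76 without Chelator replicate 2 (-0.04). The value was -0.07 with TMM size factors (adjusted p = 0.61).

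The balance of the IRP mRNAs was compared within libraries, where library scaling cancels. The ratio of *IREB2* to *ACO1* was 2.36, 2.59 and 2.45 in DMSO and 1.96, 2.03 and 2.02 in Chelator. The groups did not overlap, and the mean log2 ratio was lower by 0.30 in Chelator (-0.30, two-sided exact permutation p = 0.10, n = 3 against 3, the smallest possible).

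The make-up of *IREB2* RNA shifted as well. *IREB2-201*, the reference mRNA, measured 33.1, 42.1 and 34.9 TPM in DMSO and 27.1, 24.6 and 24.7 in Chelator, while *IREB2-203*, an NMD target, measured 0.782, 1.77 and 0.340 TPM against 2.65, 3.42 and 2.60. The groups did not overlap for either. The usage of *IREB2-203* rose (edgeR coefficient 1.47 in natural log, adjusted p = 0.0067). However, the adjusted p was 0.072 without DMSO replicate 3 and 0.079 without Chelator replicate 2, and *IREB2* was then not called. *IREB2-202*, also an NMD target, and *IREB2-204*, a fragment of 268 bases with at most 9.37 counts, are the others above 5% of the TPM, and the first of these overlapped between groups.

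*IREB2-203* skips an exon of 70 bases at chr15:78470532-78470601 (GRCh38, plus strand), a length that is not a multiple of 3. The windows show the acceptor and donor of this exon at chr15:78470508-78470537 and chr15:78470596-78470625, with 24 intronic and 6 exonic bases and the splice dinucleotides in capitals.
IREB2 exon acceptor: aatgccagctcttcttccttttAGacctga
IREB2 exon donor: tttaagGTataaatgattcagggaaatttt
Skipping took 2.14%, 3.83% and 0.906% of the TPM that spans this exon in DMSO and 7.87%, 11.4% and 8.67% in Chelator, and only 30 junction words of 31 bases identify it. The 3 NMD transcripts together held 7.75% ± 0.15 of *IREB2* TPM in DMSO and 15.6% ± 1.5 in Chelator (SD, n = 3, two-sided exact permutation p = 0.10, the smallest possible). As a share of estimated counts these were 1.79% and 6.11%.

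All 3 *ACO1* transcripts exceeded 5% of the TPM and share a coding sequence of 2667 bases. *ACO1-201*, with the longest 3′ UTR, measured 3.33, 4.26 and 3.46 TPM in DMSO and 2.99, 2.19 and 2.79 in Chelator, and *ACO1-202* measured 14.1, 14.7 and 10.2 TPM against 15.6, 12.7 and 14.5. *ACO1-203*, which has 48 words of its own out of 3588, ranged from 0 to 3.73 TPM with no pattern by group. The long 3′ UTR held 18.9%, 21.1% and 19.9% of *ACO1* TPM in DMSO and 16.1%, 13.5% and 16.2% in Chelator, without overlap. The usage test of edgeR did not call *ACO1* (Simes test, adjusted p = 1.0), but without Chelator replicate 2 it did (0.0090).

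*FBXL5*, the F-box protein that senses iron, measured 15.8, 16.2 and 17.9 TPM in DMSO and 16.9, 19.2 and 15.7 TPM in Chelator. The ranges overlapped. The log2 fold change was 0.02 ± 0.12 (DESeq2 adjusted p = 0.94), with an interval of 0.859 to 1.19 for the fold change. This sum joined transcripts that differed in direction. Over protein-coding transcripts alone the log2 fold change was -0.95 ± 0.20 (adjusted p = 1.2e-05), and without the length correction it was -0.53 (adjusted p = 6.6e-08). The average effective length of *FBXL5* transcripts was 1336 ± 86 bases in DMSO and 918 ± 50 in Chelator, without overlap.

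The 2 transcripts that differ most are the reference mRNA and a short one with no defined coding sequence. *FBXL5-201*, with 11 exons and 2073 coding bases, measured 2.18, 3.09 and 2.16 TPM in DMSO and 0.856, 1.34 and 0.628 TPM in Chelator, that is 410 to 582 counts against 128 to 323. *FBXL5-212*, of 592 bases in 2 exons from an upstream first exon at chr4:15681280-15681679 (GRCh38, minus strand), measured 7.29, 7.28 and 9.24 TPM against 11.7, 13.7 and 10.9. Neither overlapped between groups.

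The share of *FBXL5* TPM in protein-coding transcripts was 33.1%, 31.7% and 26.5% in DMSO and 16.7%, 16.4% and 11.1% in Chelator (two-sided exact permutation p = 0.10, n = 3 against 3, the smallest possible). By estimated counts, which do not weight the short transcripts up, this share was 53.7% ± 5.18 and 35.0% ± 7.39, and that of the transcript with no defined coding sequence was 13.3% ± 2.27 and 32.6% ± 2.85, against 47.5% ± 3.63 and 70.1% ± 1.39 by TPM (SD, n = 3). The upstream first exon held 54.7%, 45.1% and 54.8% of the TPM with a first exon at either start in DMSO and 70.2%, 76.0% and 71.7% in Chelator. The usage test of edgeR did not call *FBXL5* (Simes test, adjusted p = 0.59) and limma's did (0.0038), with few counts behind each transcript. *FBXL5-209* (NMD), *FBXL5-202* (protein-coding) and *FBXL5-205* (a retained intron) are the others above 5%. The NMD form, marked by an extra exon of 104 bases, held 17.6%, 18.0% and 27.6% of the TPM across that exon in DMSO and 19.7%, 14.7% and 28.7% in Chelator, ranges that overlapped. The upstream exon begins beside *FAM200B*, a gene on the opposite strand whose annotated exons overlap its first bases, and 0 of the 679 words that mark this start occur in another gene.

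**Figure D3:**
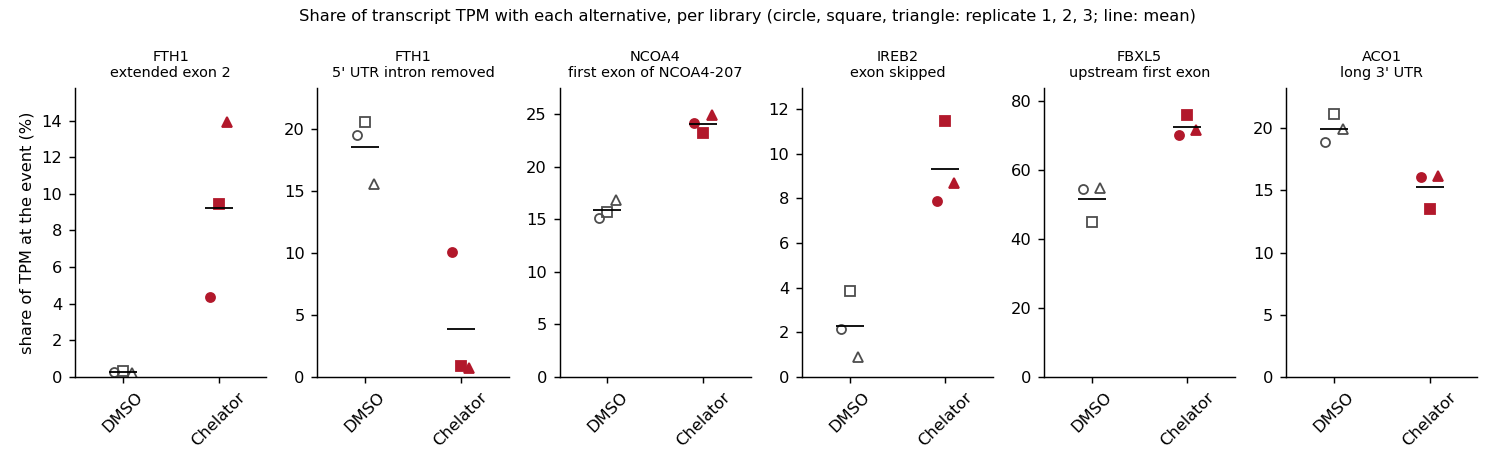
Percent of transcript TPM (linear vertical axes from 0) that carries each alternative among the transcripts that span it, in each library, with symbols for replicates 1 to 3 and a line for the mean. The inserted exon of *FBXL5*, whose groups overlapped (means of 21.1% in DMSO and 21.0% in Chelator), is not drawn. The extended exon 2 of *FTH1* goes from at most 0.306% in DMSO to 4.38% to 13.9% in Chelator, and the upstream first exon of *FBXL5* from at most 54.8% to at least 70.2%. These alternatives were chosen after the transcript values were seen and were not tested.

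**Figure D4:**
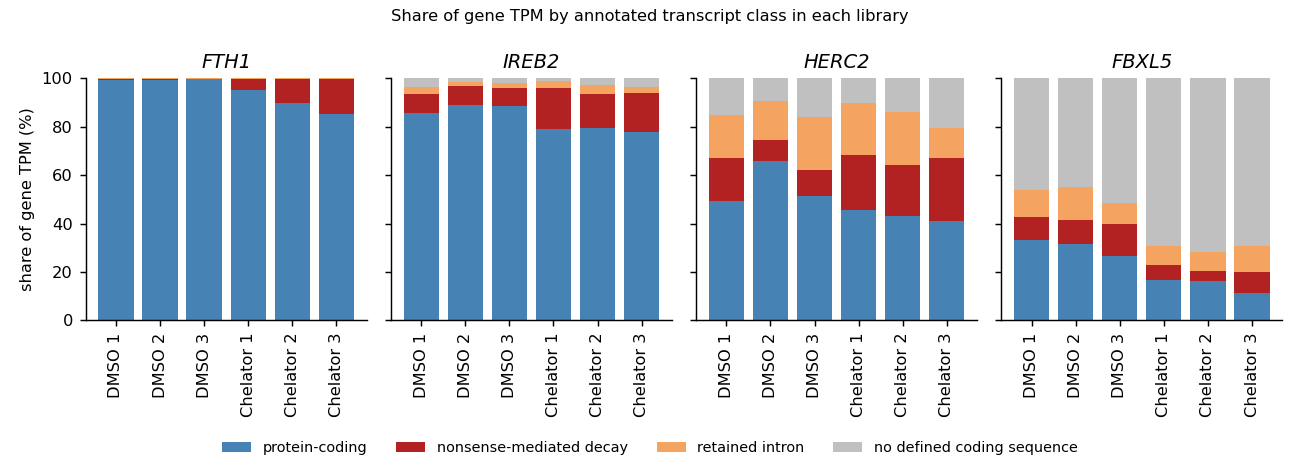
Stacked shares of gene TPM (percent, bars sum to 100) by annotated transcript class in each library for the 4 genes with more than one class. The NMD share is higher in every Chelator library than in every DMSO library for *FTH1*, *IREB2* and *HERC2*, and lower for *FBXL5*, whose transcripts without a defined coding sequence go from 47.5% ± 3.6 to 70.1% ± 1.4.

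The NMD class therefore did not move one way in all members. Its share of *HERC2* TPM was 17.7%, 9.05% and 10.9% in DMSO and 22.7%, 21.2% and 26.3% in Chelator. For *FBXL5* it was 9.50%, 9.91% and 13.4% against 6.09%, 4.17% and 8.77%, and as a share of estimated counts its ranges overlapped. *FTL*, *NCOA4* and *ACO1* have annotated protein-coding transcripts only.

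**Figure D5:**
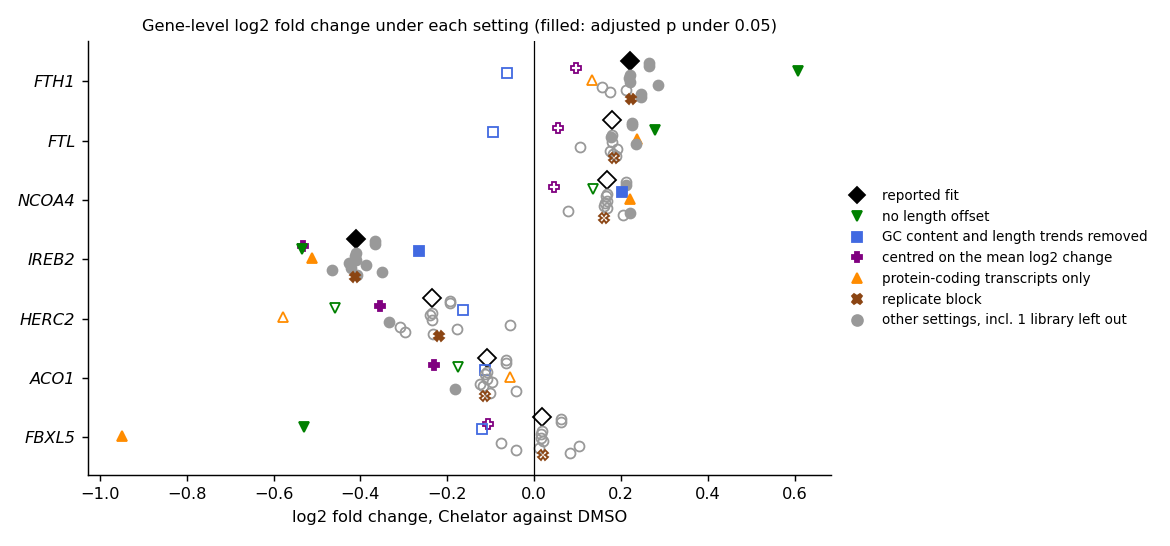
Log2 fold change (Chelator against DMSO) of each gene under the reported fit and 16 alternatives, filled where the adjusted p is under 0.05. *IREB2* is below 0 and filled at every setting, *FTH1* and *FTL* are above 0 except in the fit without GC-content and length trends, and *FBXL5* lies on both sides of 0.

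The partners of these genes were read from lists of the same pathways. The SCF ligase that carries FBXL5 had 5 genes, of which 3 were higher and 2 lower in Chelator, with a median log2 fold change of 0.36, against 19.5% higher and 18.3% lower and a median of 0.016 over all genes. *RBX1*, its RING subunit, rose by 0.70 ± 0.13 (DESeq2 adjusted p = 9.1e-07) and *NEDD8*, its activating modifier, by 0.58 ± 0.11 (1.4e-06). *CUL1*, its scaffold, fell by 0.39 (2.1e-08) and *CAND1*, its exchange factor, fell by 0.41 (3.6e-08). None changed beyond a log2 fold change of 1, as 10.8% of all genes tested did.

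Of 10 iron-sulfur assembly factors, which serve many cluster proteins and not IRP1 alone, 0 were higher, 4 were lower and 6 did not pass, with a median of -0.20, against 19.5% higher and 18.3% lower over all genes. *MMS19*, a late-acting targeting factor, fell by 0.35 (DESeq2 adjusted p = 3.4e-04), *NFS1*, the sulfur donor, fell by 0.28 (0.0034) and *CIAO1* fell by 0.24 (0.0075). *CIAO2A*, the targeting factor known to mature IRP1, was named for that role and not for its p-value. It had a log2 fold change of -0.09 (DESeq2 adjusted p = 0.43) and is not among those counted as lower. The PCBP proteins, a family of iron chaperones, were split: *PCBP1* fell by 0.35 (1.9e-06) and *PCBP2* by 0.25 (0.0045), *PCBP4*, at 1.76 ± 0.33 TPM in DMSO and 4.13 ± 1.07 in Chelator, rose by 1.21 ± 0.21 (4.7e-08), and *PCBP3*, at most 1.3 TPM, did not pass.

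The autophagy route that NCOA4 uses had 16 genes, of which 6 were higher, 2 lower and 8 did not pass, with a median of 0.23 (over all genes 19.5% were higher, 18.3% lower and 10.8% called). The LC3 gene *MAP1LC3B*, a membrane anchor of autophagosomes, measured 52.9, 58.3 and 54.9 TPM in DMSO and 137, 185 and 199 TPM in Chelator (log2 fold change 1.61 ± 0.11, DESeq2 adjusted p = 2.0e-45). The initiating kinase *ULK1* measured 7.76, 7.23 and 6.99 TPM against 16.4, 17.1 and 19.3 (1.23 ± 0.10, adjusted p = 1.1e-30). These 2 were called, and neither overlapped between groups. *GABARAPL1* (0.74 ± 0.10) and the ferritinophagy adaptor *TAX1BP1* (0.46 ± 0.08) also rose, with adjusted p-values of 4.1e-13 and 1.7e-07.

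Other mRNAs with a known IRE did not share one direction. With the element in the 5′ UTR, the erythroid heme enzyme *ALAS2* rose by 1.00 ± 0.09 (DESeq2 adjusted p = 2.7e-25) and *EPAS1* (HIF-2alpha) by 3.08 ± 0.13 (6.6e-121), both called, and the iron exporter *SLC40A1* fell by 0.54 (1.4e-09), where over all genes 10.8% were called, 19.5% higher and 18.3% lower. With the element in the 3′ UTR, the transferrin receptor *TFRC* rose by 2.89 ± 0.10 (3.2e-172), *CDC14A* fell by 0.35 (1.3e-04), and *SLC11A2* and *CDC42BPA* did not pass. The *TFRC* value is over all its transcripts, and those with the IRE motif made up 72.2%, 76.1% and 55.3% of its TPM in DMSO and 41.7%, 35.2% and 34.0% in Chelator, without overlap. *TFRC* and *SLC40A1* were also examined by the study in these samples, so they are no independent evidence.

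As a description of pattern, the 3 protein-coding genes whose log2(TPM + 1) over the 6 libraries correlated best with *FTH1* were *TM4SF19*, *LCP2* and *HBG1* (Pearson r from 0.994 to 0.996, of 7533 genes compared). For *NCOA4* they were *ELOVL5*, *SCD* and *FRRS1* (0.990 to 1.00), and for *IREB2* they were *EXOG*, *CDC42SE1* and *GTF2F2* (0.998 each). The 6 points are 3 libraries from each of 2 groups, so a gene that differs between the groups gives a high r.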

How the data were processed

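Polyadenylated RNA of 6 K562 libraries (3 Chelator, 3 DMSO) was read from 1 file per library. Per the submitters' notes the authors used Salmon 1.10.2 and the hg38 build. The authors deposited an estimated count per transcript, which need not be whole, and TPM, which the authors scaled by effective length to a fixed sum per library. The transcript annotation was not given in the sources used here. Identifiers were looked up in GENCODE 44, with 433 of 252045 unmatched and left out (at most 0.150% of counts).

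Estimated counts were summed per gene and rounded, genes totalling above 10 were tested with DESeq2 1.42.0 (Wald test, average transcript length as offset, 26074 genes entered), and edgeR 4.0.16 (quasi-likelihood fit, diffSpliceDGE) tested usage over transcripts with at least 10 counts in 3 libraries. Both were tested on simulated data. Alternatives included edgeR's gene test, limma 3.58.1, other scalings, filters, and leaving out each library. Sequence windows came from GENCODE transcripts and the GRCh38 genome. Single values were compared by exact permutation over libraries. The 7 genes, each transcript above 5% of its gene's TPM, at most 4 genes per list and the 3 genes most alike in pattern were named. Members and lists were chosen with earlier results of these data known. Library totals limit precision little for ferritin, and more for *FBXL5*, with 1121 to 1720 counts. Intervals cover the spread between libraries only. One gene of the lists is not reported here.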

Additional observations from a re-analysis of the deposited data

How the results depend on the processing

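The gene-level fit called 2646 genes. Other tests, scalings and filters called 1783 to 2864, leaving out 1 library 2207 to 2607, and dropping the fold threshold 9260. The count of the 7 members with an adjusted p under 0.05 was 2 and became 4 with TMM size factors, 4 without the length offset and 4 over protein-coding transcripts, and 1 to 4 without 1 library. *FBXL5* turned to -0.11 with mean centring, -0.53 without the length offset, -0.12 with GC-content and length trends removed and -0.95 over protein-coding transcripts, and its values without 1 library ran from -0.077 to 0.10. Removing the trends turned *FTH1* to -0.063 and *FTL* to -0.094. That setting and mean centring moved the median of all genes from 0.016 to -0.09 and -0.11. Usage calls (1101) became 3184 with limma and 539 to 1063 without 1 library, where 592 and 539 were without Chelator replicates 2 and 3, and members called went from 3 to 5 with limma and to 2 or 3 without 1 library (*HERC2* was lost without DMSO replicate 2, *IREB2* without DMSO replicate 3 and without Chelator replicate 2, and *ACO1* was called in the last of these). From estimated counts the log2 differences of the *FTH1* to *FTL* and *IREB2* to *ACO1* ratios became 0.33 and -0.36, and without 1 library they ran from -0.001 to 0.062 and from -0.33 to -0.26. The cause of these changes was not tested. Depth limits *FBXL5* and rare *HERC2* and *IREB2* transcripts.

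The replicate numbers are shared by the groups. Correlations of deviations from the group means were -0.0036, 0.13 and 0.094 for same-numbered libraries and -0.12 to 0.046 for the others. Whether the numbers pair the libraries was not tested. With the replicate block, 2345 genes were called, 3 members had an adjusted p under 0.05 (*FTH1*, *IREB2* and *HERC2* at 0.044) and usage called 923 genes and 3 members.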
